A study of Mus musculus with 4 samples.

Results

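The clustered histone genes are the histone genes that lie together in a few genomic clusters, and they were chosen here as every row of the count table whose mouse gene symbol in the annotation GENCODE vM21 starts with Hist1h, Hist2h, Hist3h or Hist4h. The rule found 67 genes among the 21936 gene identifiers of the table. A further 3 genes of the annotation carry such a symbol, all of them pseudogenes, and were not analysed here. The 67 genes comprised 6 genes for the linker histone H1, 18 for H2A, 18 for H2B, 12 for H3 and 13 for H4. The Hist1 cluster on chromosome 13 held 54 of them, the Hist2 cluster on chromosome 3 held 10, and chromosomes 11 (Hist3) and 6 (Hist4) held 2 and 1.

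Core histones H2A, H2B, H3 and H4 form the protein spool of the nucleosome, and H1 binds the linker DNA between nucleosomes. Most clustered histone genes are transcribed during S phase, have no introns, and give mRNAs that end in a conserved stem-loop bound by SLBP instead of a poly(A) tail. In the testis, spermatogenic cells make the variants H1t (Hist1h1t), TH2A (Hist1h2aa) and TH2B (Hist1h2ba), and most histones are later replaced by transition proteins and protamines in elongating spermatids.

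RNA was measured in 4 libraries, 2 of TSSK2-IP and 2 of control IgG-IP, from testes of adult C57BL/6 mice. In both groups, germ cells released from seminiferous tubules were cross-linked and lysed, the sonicated pellet fraction was immunoprecipitated with either an anti-TSSK2 antibody or mouse IgG, and RNA was sequenced in directional libraries that kept rRNA. TSSK2 is a testis-specific serine kinase found in the late chromatoid body, an RNA granule of elongating spermatids, and the comparison asks which mRNAs are more abundant in its immunoprecipitate than in the control. Neither group was sorted by cell type, the number of mice behind a library is not given in the sources used here, and nothing there says that replicates came from separate mice, so p-values measure only the spread between these libraries.

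The libraries held 3938922 to 9858941 counts, of which control IgG-IP replicate 1 had the most. Between 1211 and 1837 counts per library fell on clustered histone genes, or 0.0151% to 0.0442% of the total. Levels are given as normalized CPM, that is, counts scaled to a common library size by the TMM method (CPM), and 1 count was worth 0.156 to 0.230 CPM. A limit of 3 counts corresponded to 0.468 to 0.689 CPM and covers counting error only. Control IgG-IP replicate 1 stood apart from the other libraries in cell type markers. The summed level of 8 spermatocyte markers was 5346 CPM there and 2354 to 2408 CPM in the other libraries, and that of 8 elongating spermatid markers was 12882 against 4630 to 6201 CPM. These gaps came mainly from some abundant markers, Hspa2 and Ldhc in the first list and Akap4, Prm2 and Gapdhs in the second. Of the markers, 5 of 8 and 7 of 8 were highest in this library, while Dmc1 and Tnp1 were lowest there. The 8 round spermatid markers summed to 1164 CPM in it (4 highest, 3 lowest there) and to 766 to 847 CPM in the others. Spermatogonia markers ran the other way, with 39.5 CPM in it, 43.4 to 65.7 CPM in the others, and 6 of 8 markers lowest there. Somatic testis markers (10 genes) summed to 25.4 CPM in it and to 48.0 to 53.1 CPM in the others, and blood markers (6 genes) to 10.3 to 13.5 CPM in all libraries. These levels depend on the scaling, with a TMM factor of 0.652 for control IgG-IP replicate 1 and 1.12 to 1.18 for the others. As shares of raw totals, its spermatocyte and elongating spermatid gaps were smaller, and its round spermatid sum was the lowest of all libraries. In immunoprecipitates of unsorted cells, the cells put in, the RNA per cell and the RNA brought down cannot be told apart. The part of these differences in the results was not tested.

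The sequence that sets these genes apart is the stem-loop behind the stop codon. It was searched in the GRCm38 genome as a 6-base stem that begins with GG, a 4-base loop that begins with TT, and the exact reverse complement of the stem, within 200 bases after each annotated stop codon. Of the 67 genes, 62 had a single exon in every annotated model and 5 had more. The stem-loop was found in 63 of the 67 genes (94%) and in 16 of 21695 other protein-coding genes (0.0737%). The loops of the genes that the results turn on are printed below on the coding strand, with the paired stem in capitals and the loop in lower case.
Hist1h1t (chr13:23696525-23696540, plus strand): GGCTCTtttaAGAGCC
Hist1h2ba (chr13:23933730-23933745, minus strand): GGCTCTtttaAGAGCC
Hist1h2aa (chr13:23934891-23934906, plus strand): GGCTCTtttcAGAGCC
Hist2h2ab (chr3:96220333-96220348, plus strand): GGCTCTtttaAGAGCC
Hist2h2ac (chr3:96220418-96220433, minus strand): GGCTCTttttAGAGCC
Hist2h2aa2 (chr3:96239784-96239799, minus strand): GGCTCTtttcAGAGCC
Hist1h4c (chr13:23698089-23698104, minus strand): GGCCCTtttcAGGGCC

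The stem letters divided the genes by histone class. The form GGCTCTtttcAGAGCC was found in 41 genes, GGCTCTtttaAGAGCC in 9 and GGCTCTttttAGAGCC in 1, all of them H1, H2A, H2B or H3 genes. Every H4 loop found had another stem, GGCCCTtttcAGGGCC in 8 genes, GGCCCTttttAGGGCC in 2 and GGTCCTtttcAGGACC in 2. The stem started 22 to 59 bases after the stop codon (median 31). No such loop was found behind Hist1h2an, Hist1h3g, Hist1h4a and Hist2h2be, which says only that these letters are not in that window. The annotated gene models reached past the loop to different extents, since 16 models ended before or within it and 26 continued for more than 100 bases beyond it, so that the counted length of an mRNA is not always its processed length.

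Promoter sequence is shown for some of the genes whose levels are described next, the testis variants Hist1h1t and Hist1h2aa and the Hist2 genes Hist2h2ab and Hist2h2ac. RefSeq (GRCm38.p6) held a promoter for 62 of the 67 genes, and the 250 bases before the start were searched on both strands for known promoter letters. These were the TATA box with the letters TATAAA, the CCAAT box, the octamer with the letters ATTTGCAT and the H1 box with the letters AAACACA, each also as its reverse complement. No printed match overlaps another. The last 150 bases before the start are printed below, with matches in capitals.
Hist1h1t (chr13:23695661-23695810, plus strand): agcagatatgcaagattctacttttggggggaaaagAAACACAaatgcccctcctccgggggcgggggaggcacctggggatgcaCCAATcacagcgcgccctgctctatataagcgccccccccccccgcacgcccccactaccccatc
Hist1h2aa (chr13:23934287-23934436, plus strand): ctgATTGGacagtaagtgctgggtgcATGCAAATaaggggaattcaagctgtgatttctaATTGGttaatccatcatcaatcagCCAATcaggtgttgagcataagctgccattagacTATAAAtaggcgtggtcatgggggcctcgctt
Hist2h2ab (chr3:96219735-96219884, plus strand): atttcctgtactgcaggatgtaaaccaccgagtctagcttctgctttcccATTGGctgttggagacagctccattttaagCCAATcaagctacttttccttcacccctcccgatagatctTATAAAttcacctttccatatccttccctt
Hist2h2ac (chr3:96220881-96221030, minus strand): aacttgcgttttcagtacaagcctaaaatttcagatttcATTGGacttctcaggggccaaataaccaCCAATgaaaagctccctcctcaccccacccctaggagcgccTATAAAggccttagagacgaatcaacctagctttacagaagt

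Among the 62 promoters, CCAAT was present in 82.3%, against 33.8% of all 32851 promoters of the same length, and TATAAA in 46.8% against 12.4%. The octamer was present in 21% against 1.6%, and its 13 carriers were 7 H2A and 6 H2B genes. AAACACA was present in 14.5% against 6.25%, and in 5 of the 6 H1 genes. All 18 H2A, 16 H2B and 6 H1 promoters held CCAAT, compared with 3 of 12 H4 promoters. Both testis variants and both Hist2 genes printed above hold CCAAT, as do the third testis variant, Hist1h2ba, and Hist2h2aa2, which are not printed. Among these genes, only Hist1h1t and Hist2h2aa2 had no TATAAA. A match describes the sequence and is not evidence of a bound factor.

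Counts were sparse. Of the 67 genes, 61 had a count in some library and 6 had none. The filter on low counts kept 19 genes for the test and left out 48, none of which had more than 19 counts in a library. Of the 19 tested genes, 8 passed the filter's minimum of 2.31 CPM (of raw totals) in both control libraries, 8 in 1 of them and 3 in none. The last 3 were Hist2h2ab, Hist2h2ac and Hist2h2aa2, which entered the test through the TSSK2-IP libraries alone and had to differ in that direction. The tested set is therefore not a sample of the whole family.

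Clustered histone genes also share sequence with one another. In 25 of the 67 genes, at least 80% of the 100-base words of the exons occurred at 1 place in the genome, and these had a median of 37 counts over the 4 libraries. In 18 genes this share was 50% to under 80% (median 13 counts), and in 24 genes it was under 50% (median 7 counts). It was 0% in 5 genes. Of these, Hist1h2ao, Hist1h2ap, Hist1h2bq and Hist1h2br had no count in any library, and Hist2h2aa2 had 40. How reads that map to several places or genes were counted is not given in the sources used here, so the values of genes with near-identical copies are uncertain.

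**Figure D1:**
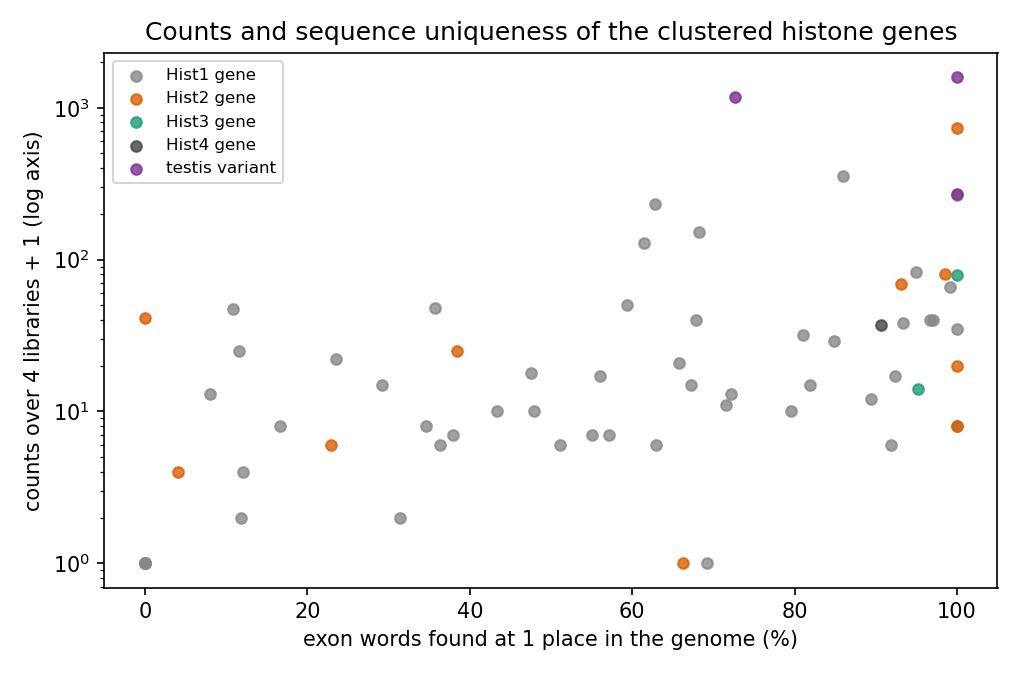
Total counts over 4 libraries plus 1 (log axis) of each of the 67 clustered histone genes against the share of its 100-base exon words found at 1 place in the genome (%), coloured by cluster with the testis variants apart. Genes with a share under 50% had at most 47 counts. Near the top lie Hist1h1t and Hist2h2be, at 100%, and Hist1h2ba, at 72.6%, while Hist1h1b and Hist2h2bb, also at 100%, had few counts.

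The testis variants were the clustered histone mRNAs with the highest levels per length, and in each of them the TSSK2-IP libraries overlapped the control IgG-IP libraries. Per kb of exon, the mean level over the 4 libraries was highest for Hist1h2ba at 149 CPM per kb, followed by Hist1h1t at 82.4 and Hist1h2aa at 33.1. Hist1h4c (21.2 CPM per kb), Hist1h1a (18.0), Hist1h2bp (16.1), Hist1h4a (14.0) and Hist2h2be (13.5) came next. This order depends on the annotated exon lengths, such as 390 bases for Hist1h2aa and 2620 for Hist2h2be. In CPM not divided by length, both group means of Hist1h2aa were lower than those of Hist2h2be and Hist1h4c. All 3 testis variants are single-exon genes of Hist1 (GRCm38), Hist1h1t at chr13:23695814-23696725, and Hist1h2ba (chr13:23933773-23934156) and Hist1h2aa (chr13:23934462-23934851) as divergent neighbours.

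Hist1h1t, which encodes the linker histone of meiotic and early haploid germ cells, was at 76.7 and 68.9 CPM in TSSK2-IP and at 87.4 and 67.6 CPM in control IgG-IP. The groups overlapped, and both TSSK2-IP libraries lay between the control libraries. Its log2 fold change (TSSK2-IP over control IgG-IP) was -0.09 with a standard error of 0.42 and a Benjamini-Hochberg adjusted p of 0.943 by edgeR's quasi-likelihood method, as for all adjusted p-values below. The sign turned to 0.16 when control IgG-IP replicate 1 was left out. All of its exon words are unique in the genome.

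Hist1h2ba, the gene of the testis H2B variant TH2B, was at 70.3 and 52.7 CPM in TSSK2-IP and at 46.7 and 59.3 CPM in the controls. The groups again overlapped, with 1 control library on each side of TSSK2-IP replicate 2. The log2 fold change was 0.22 with a standard error of 0.41 (edgeR adjusted p = 0.840), and it was -0.01 without TSSK2-IP replicate 1. Of the exon words of Hist1h2ba, 72.6% are unique. Hist1h2aa, the gene of the testis H2A variant TH2A, was at 17.0 and 11.8 CPM in TSSK2-IP and at 12.0 and 10.8 CPM in the controls, also with overlap. Its log2 fold change was 0.33 with a standard error of 0.44 (edgeR adjusted p = 0.757).

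Over all genes tested, 102 of 14722 (0.693%) were called higher in TSSK2-IP, with a log2 fold change no smaller than 1 and an edgeR adjusted p no larger than 0.05, and 0 were called lower. Of the 19 tested clustered histone genes, 0 were called higher and 0 lower. At an unadjusted p under 0.05 in edgeR's quasi-likelihood test, 4 of the 19 (21.1%) were higher, against 8.34% of all genes tested, and 0 were lower, against 4.89%. Of these 4, Hist2h2ab, Hist2h2ac and Hist2h2aa2 entered the test through TSSK2-IP alone, so this share is partly set by the filter. With no filter, edgeR gave 6 of 61 genes (9.84%) higher at the unadjusted p, against 7.13% of all genes, and DESeq2, which called 0, gave 4 of 61 (6.56%) against 4.02%. The count called was not stable to the control libraries. Leaving out either control library brought some clustered histone genes past both thresholds, with Hist2h2ab and Hist2h2ac among them in both fits. Leaving out a TSSK2-IP library brought none. With 1 control library left, the spread is estimated from the TSSK2-IP pair alone, whose replicates differed less than the controls, and the lone control is assumed to vary like it. The small p-values of those fits rest on this assumption. Over all genes, the same fits called many more genes than the main fit, in both directions, so these calls are not read as a result about the family.

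A positive log2 fold change was found for 17 of the 19 tested genes (89.5%), against 49.2% of all genes tested, and the median was 0.67 against -0.02. Both libraries of TSSK2-IP were higher than both controls in 8 of the 19 (42.1%), against 27.3% of all genes tested, and lower than both in 1 (5.26%), against 21.6%. Part of this is built into the filter, as described above. Over the 61 genes with any count, and with no filter, both libraries of TSSK2-IP were higher than both controls in 17 genes (27.9%) and below both in 5 (8.20%), against 21.7% and 22.4% of all genes with a count. The median log2 fold change was 0.23 without TSSK2-IP replicate 1, 0.29 on leaving out control IgG-IP replicate 1 and 1.04 on leaving out the other control library. The filter was rerun each time, so these medians cover 25, 27 and 24 genes rather than the same 19. The plot of the fitted changes shows that the highest values belong to Hist2 genes and the lowest to Hist1 genes, the testis variants among them.

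**Figure D2:**
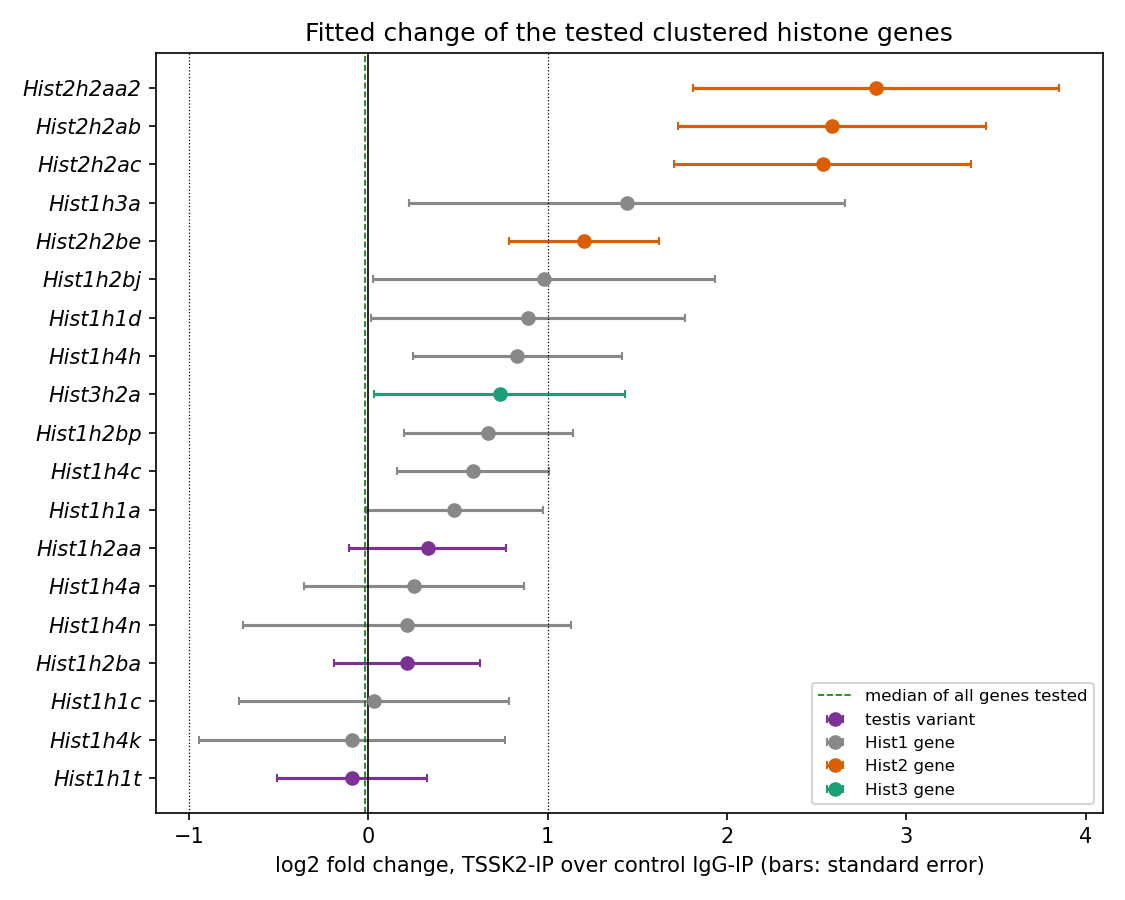
Log2 fold change of TSSK2-IP over control IgG-IP for each of the 19 tested clustered histone genes, with bars of 1 standard error from edgeR (n = 2 libraries per group), coloured by cluster with the testis variants apart; the dashed line is the median of all genes tested and the dotted lines mark -1 and 1. Hist2h2aa2, Hist2h2ab and Hist2h2ac lie between 2.53 and 2.83, while Hist1h1t lies at -0.09, and none passed the adjusted p.

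The 4 genes with an unadjusted p under 0.05 were all Hist2 genes, and were grouped by cluster after their values were seen. Hist2h2be (chr3:96221119-96223738), an H2B gene whose annotated mRNA is longer than those of most of the family and had no stem-loop in the window searched, was at 58.3 and 40.5 CPM in TSSK2-IP and at 25.7 and 17.0 CPM in control IgG-IP. Each TSSK2-IP library was above each control library, and the group means were 49.4 ± 12.5 and 21.4 ± 6.18 CPM (SD, n = 2). The log2 fold change was 1.20 with a standard error of 0.42 (edgeR adjusted p = 0.268), and all of its exon words are unique. Across the alternatives it ranged from 0.87 to 1.59, with the adjusted p from 1.37e-08 (without control IgG-IP replicate 1, with the spread from the TSSK2-IP pair alone) to 1.00.

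Hist2h2ab (chr3:96219865-96220308) and Hist2h2ac (chr3:96220361-96220880) are neighbouring H2A genes whose 3′ ends face each other. Hist2h2ab had 38 and 30 counts in TSSK2-IP and 2 and 9 in the controls, or 7.88 and 5.71 against 0.312 and 2.07 CPM. Hist2h2ac had 22 and 36 counts in TSSK2-IP and 4 and 6 in the controls, or 4.56 and 6.85 against 0.624 and 1.38 CPM. In both genes the groups were apart, and every pairing of a TSSK2-IP with a control library gave a ratio over 2. This held for 4.01% of all genes tested, but both genes had entered the test through TSSK2-IP alone and are named for their values, so nothing is read from that share. The log2 fold changes were 2.58 (standard error 0.86, edgeR adjusted p = 0.257) for Hist2h2ab and 2.53 (standard error 0.83, edgeR adjusted p = 0.251) for Hist2h2ac. The exon words of these genes were unique to 98.6% and 93.1%.

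Hist2h2ab passed both thresholds when no filter on low counts was applied (log2 fold change 2.60, edgeR adjusted p = 0.025), and on leaving out either control library, where the spread came from the TSSK2-IP pair alone. Across the alternatives its log2 fold change ranged from 1.76 to 4.28 and its adjusted p from 1.37e-06 to 1.00. That of Hist2h2ac ranged from 2.09 to 3.08, with the adjusted p from 0.000223 to 1.00. Both genes overlap a predicted gene on the opposite strand, Gm15444 by 303 bases and Gm44492 by 141 bases, neither of which had a row in the count table. All other H2A genes of the family also overlap a predicted gene on the opposite strand. The strand setting of the counting is not given in the sources used here, so reads of such partners cannot be told apart from theirs.

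Hist2h2aa2 (chr3:96239749-96240276), a further H2A gene, had 14 and 21 counts in TSSK2-IP and 3 and 2 in the controls, or 2.90 and 3.996 against 0.468 and 0.460 CPM. The libraries of the groups were apart by more than 2-fold. Its log2 fold change was 2.83 with a standard error of 1.02 (edgeR adjusted p = 0.278). Both control counts lay within the limit of 3 counts, so the size of this change is uncertain. None of its exon words is unique, and its near-identical copy Hist2h2aa1 had 0 and 0 counts in TSSK2-IP and 1 and 2 in the controls, so the division of reads between the copies is uncertain. The exons of Hist2h2aa2 also overlap the predicted genes Gm20632 and Gm47311 on the opposite strand.

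The other 6 Hist2 genes were not tested. Hist2h3c2, an H3 gene, had 11 and 6 counts against 4 and 3, and Hist2h3c1 had none in any library. Hist2h4 (3 and 8 against 1 and 7 counts), Hist2h2bb (0 and 5 against 1 and 1) and Hist2h3b (1 and 0 against 1 and 3) showed overlap between the groups. The cluster's summed level was 76.7 and 60.7 CPM in TSSK2-IP and 28.4 and 24.6 CPM in the controls, which were apart. The Hist2 genes took 20.1% and 20.6% of all clustered histone counts in TSSK2-IP and 12.2% and 8.84% in the controls. These sums are given without a p, since the cluster was singled out for its values.

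**Figure D3:**
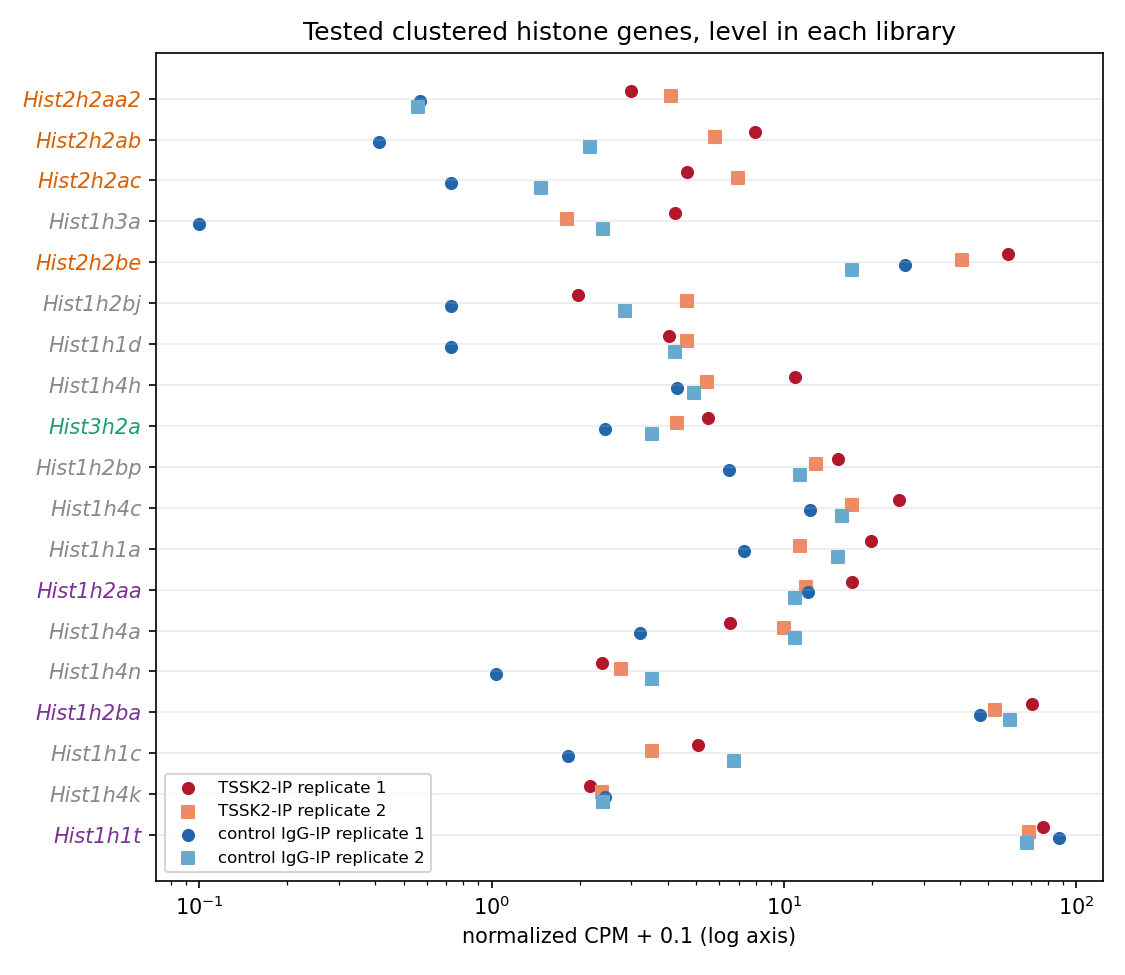
Normalized CPM plus 0.1 (log axis) of the 19 tested clustered histone genes in each of the 4 libraries, ordered by fitted log2 fold change, with gene names coloured by cluster (orange for Hist2, purple for the testis variants). In the 4 Hist2 genes the TSSK2-IP libraries lie above the controls, while in Hist1h1t they lie between them.

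Of the 8 tested genes outside Hist2 and the testis variants that encode H1 or H4, none had an unadjusted p under 0.05. Hist1h1a, a linker histone gene, was at 19.7 and 11.2 CPM in TSSK2-IP and at 7.18 and 15.2 CPM in the controls, with overlap (log2 fold change 0.48, standard error 0.49, edgeR adjusted p = 0.677). Hist1h1c was at 4.98 and 3.43 against 1.72 and 6.66 CPM (0.03, standard error 0.75, edgeR adjusted p = 0.988), and Hist1h1d at 3.94 and 4.57 against 0.624 and 4.14 CPM (0.89, standard error 0.87, edgeR adjusted p = 0.660). The sign of Hist1h1c turned in 4 of 10 alternatives, to -0.61 at the lowest, without control IgG-IP replicate 1. In all 3 genes control IgG-IP replicate 1 had the lowest level and the other control library lay within or above the TSSK2-IP range.

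Further H1 genes had too few counts for the test. Hist1h1e had 7 and 6 counts in TSSK2-IP and 16 and 10 in the controls, which lay apart with the controls higher, but its exons overlap those of Hist1h2be on the same strand. Hist1h1b, a linker histone of dividing cells, had 5 and 2 counts in TSSK2-IP and 0 in both controls. With both controls set to a floor of 3 counts, the ratio of its mean level in TSSK2-IP to theirs was 1.22. However, TSSK2-IP replicate 2, at 0.381 CPM, itself lay below that floor, which averaged 0.579 CPM. The ratio is therefore not a lower bound, and the same holds for Hist1h2af, an H2A gene with the same counts.

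For H4, the most abundant genes per length were Hist1h4c and Hist1h4a. Hist1h4c was at 24.7 and 16.9 CPM in TSSK2-IP and at 12.2 and 15.6 CPM in the controls, and the groups did not overlap (log2 fold change 0.58, standard error 0.42, edgeR adjusted p = 0.539). Hist1h4a was at 6.43 and 9.89 against 3.12 and 10.8 CPM, with overlap (0.26, standard error 0.61, edgeR adjusted p = 0.880). The sign of Hist1h4a turned to -0.34 without control IgG-IP replicate 1 and to -0.08 without TSSK2-IP replicate 2. Hist1h4h was at 10.8 and 5.33 against 4.21 and 4.83 CPM (0.83, standard error 0.58, edgeR adjusted p = 0.525), without overlap between the groups. Hist1h4k was the only tested gene whose TSSK2-IP libraries both lay below both controls, at 2.07 and 2.28 against 2.34 and 2.30 CPM, and its log2 fold change was -0.09 with an adjusted p of 0.976 in edgeR. The 4 libraries of Hist1h4k differed by less than the worth of 2 counts, and 35.7% of its exon words are unique.

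Among the H2B and H3 genes, Hist1h2bp was at 15.1 and 12.7 CPM in TSSK2-IP and at 6.40 and 11.3 CPM in the controls, and the groups did not overlap (log2 fold change 0.67, standard error 0.47, edgeR adjusted p = 0.526). H3 mRNAs were scarce. Hist1h3a, the only H3 gene tested, had 20 and 9 counts in TSSK2-IP and 0 and 10 in the controls (log2 fold change 1.45, standard error 1.22, edgeR adjusted p = 0.600), and its fitted value rests on the control library without a count. Hist1h3h, the next H3 gene by level per length, had 3 and 1 counts against 4 and 4.

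Hist3h2a, an H2A gene, was at 5.39 and 4.19 CPM in TSSK2-IP and at 2.34 and 3.45 CPM in the controls, without overlap (log2 fold change 0.73, standard error 0.70, edgeR adjusted p = 0.648). Its exons overlap those of Trim17 by 708 bases on the same strand, so some reads may belong to either gene. Hist3h2ba had 2 and 7 counts in TSSK2-IP and 2 and 2 in the controls, and Hist4h4 had 12 and 6 against 9 and 9. These small clusters gave no difference that was detectable at this depth.

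Summed over all 67 genes without a filter, the level was 381 and 295 CPM in TSSK2-IP and 232 and 278 CPM in control IgG-IP. Both TSSK2-IP libraries were higher, with group means of 338 ± 60.7 and 255 ± 32.4 CPM (SD, n = 2). The difference of the log2 sums was 0.40, and a two-sided exact permutation test gave p = 0.333, which is the smallest value that 2 libraries against 2 allow. On the scale of raw library totals the difference was 0.86. The difference was 0.71 between the libraries numbered 1 and 0.08 between those numbered 2.

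The testis variants contributed little to this difference. Their summed level was 164 and 133 CPM in TSSK2-IP and 146 and 138 CPM in the controls (exact permutation test, two-sided p = 1.00), while that of the other 64 genes was 217 and 162 against 86.4 and 141 CPM (exact permutation test, two-sided p = 0.333). The testis variants took 43.1% and 45.2% of the clustered histone counts in TSSK2-IP and 62.8% and 49.5% in the controls. The log2 ratio of the testis variants over all other clustered histone genes, which does not depend on the scaling between libraries, was -0.40 and -0.28 in TSSK2-IP and 0.76 and -0.03 in control IgG-IP. Its group means differed by -0.70 (exact permutation test, two-sided p = 0.333), with both TSSK2-IP libraries below both controls. The difference was -0.31 without control IgG-IP replicate 1, which had the highest ratio, and -1.10 on leaving out the other control library. Between the libraries numbered 1 it was -1.16, and between those numbered 2 it was -0.25. In control IgG-IP replicate 1 the spermatocyte and elongating spermatid marker sums were also the highest and the spermatogonia sum the lowest, and their part in the ratio was not tested.

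**Figure D4:**
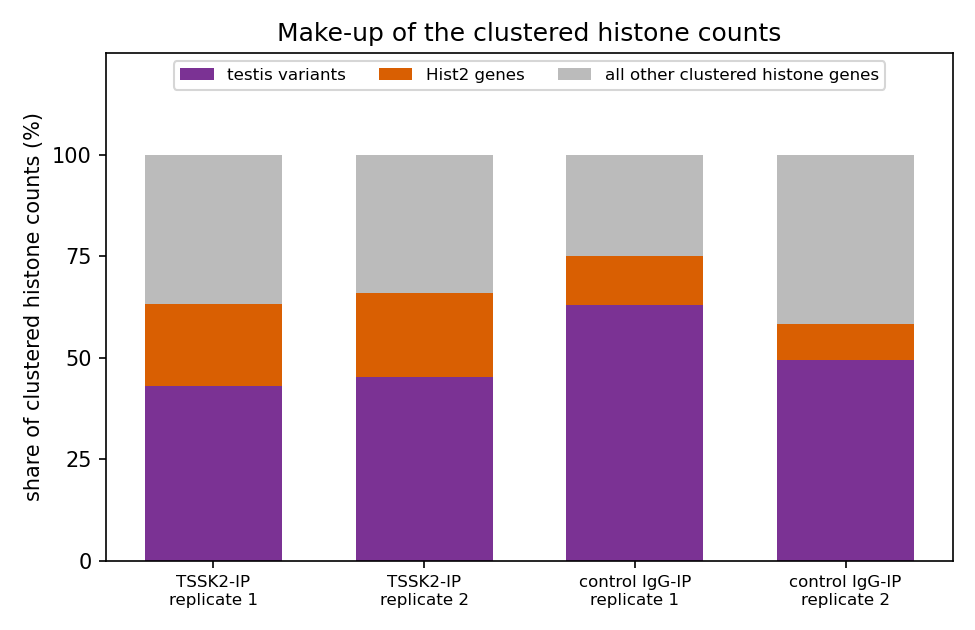
Share (%) of the clustered histone counts of each library that fell on the testis variants, on the Hist2 genes and on all other clustered histone genes; each bar is 1 library and adds to 100%. The testis variants took 43.1% and 45.2% in TSSK2-IP and 62.8% and 49.5% in control IgG-IP, and the Hist2 genes 20.1% and 20.6% against 12.2% and 8.84%.

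By class and without the testis variants, H2A and H2B were higher in both TSSK2-IP libraries, whereas H1, H3 and H4 overlapped. H2A summed to 29.2 and 26.4 CPM in TSSK2-IP and to 6.08 and 13.8 CPM in the controls, and H2B to 86.7 and 64.7 against 37.9 and 40.9 CPM. Hist2h2be gave most of the H2B sum in TSSK2-IP, at 58.3 and 40.5 against 25.7 and 17.0 CPM in the controls. Once the Hist2 genes were left out, the H2B sums of the groups overlapped, with TSSK2-IP replicate 2 and control IgG-IP replicate 2 close. Without the Hist2 genes, H2A summed to 13.9 and 9.89 against 4.52 and 9.42 CPM, so that TSSK2-IP replicate 2 and control IgG-IP replicate 2 were close. H1 summed to 31.1 and 20.7 against 12.0 and 28.3 CPM. H3 summed to 12.9 and 4.76 against 2.65 and 8.27 CPM, and H4 to 57.0 and 44.9 against 27.8 and 49.4 CPM. In H1, H3 and H4, control IgG-IP replicate 1 was the lowest library and control IgG-IP replicate 2 lay between the TSSK2-IP libraries. The sum of the Hist1 genes other than the testis variants followed this second pattern at 132 and 94.2 against 54.0 and 110 CPM.

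**Figure D5:**
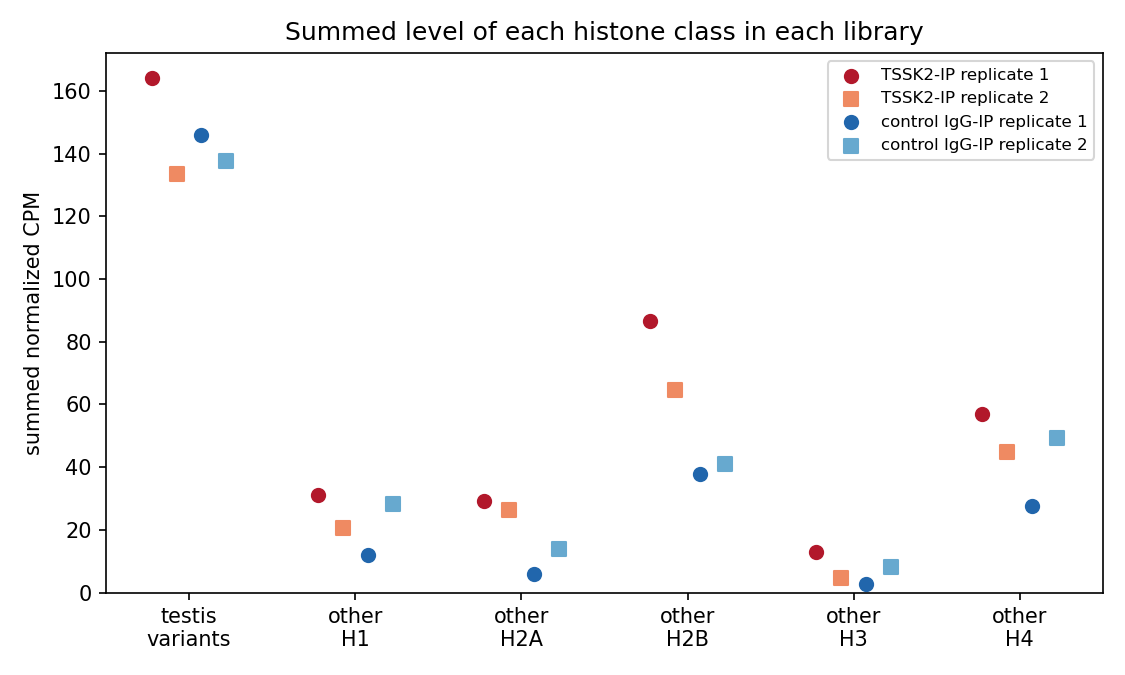
Summed normalized CPM of the testis variants and of the other genes of each histone class in each of the 4 libraries (points; 2 libraries per group). The testis variants lie between 133 and 164 CPM in all libraries. The groups are apart in H2A and H2B, whose sums include the Hist2 genes, and overlap in H1, H3 and H4.

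The replicates of the control group agreed less well than those of TSSK2-IP. Over the 19 tested genes, the median size of the log2 difference between replicates (with 0.5 CPM added) was 0.48 for TSSK2-IP but 0.74 for the controls, and it reached 1 in 2 and 8 genes, respectively. Control IgG-IP replicate 1 was below control IgG-IP replicate 2 in 14 of the 19 genes. The exceptions were Hist1h1t, Hist1h2aa, Hist1h4k, Hist2h2be and Hist2h2aa2.

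Other genes tied to histones or S phase were taken from lists of known members, and edgeR and DESeq2 called 0 genes in each list. With a control library left out, edgeR called some genes of these lists. Those fits called many more genes over the whole table than the main fit, in both directions. These calls are therefore not read as a result about the lists. Of 16 tested histone genes outside the clusters, 1 was higher at an unadjusted p under 0.05, against 8.34% of all genes tested. This gene was H2afv, which encodes an H2A.Z variant. It was at 14.1 and 15.03 CPM in TSSK2-IP and at 5.77 and 6.66 CPM in the controls (log2 fold change 1.23, standard error 0.46, edgeR adjusted p = 0.293). The groups were apart, and also for H2afz, the other H2A.Z gene, at 64.1 and 66.6 against 41.3 and 39.5 CPM (0.69, edgeR adjusted p = 0.443). This was not particular to H2A.Z genes. Both TSSK2-IP libraries were above both controls in 5 of the 16, against 27.3% of all genes tested, and below both in 3, against 21.6%. The median log2 fold change of this list was 0.17.

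Of 18 genes for histone mRNA transcription, 3′ processing and decay, 1 was higher at the unadjusted p, against 8.34% of all genes tested. This gene was Lsm1, a subunit of the cytoplasmic LSM ring that acts in mRNA decay. It was at 18.2 and 17.1 CPM in TSSK2-IP and at 5.62 and 5.51 CPM in the controls, which were apart (log2 fold change 1.66, standard error 0.45, edgeR adjusted p = 0.148). Ncbp2, the small subunit of the nuclear cap-binding complex, had the next smallest p, at 25.1 and 28.2 against 14.4 and 15.6 CPM (0.83, edgeR adjusted p = 0.389). The median of the list was -0.18, but it turned to 0.11 without control IgG-IP replicate 1. A positive log2 fold change was found for 7 of its 18 genes, against 49.2% of all genes tested.

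Of 17 histone chaperone genes, 1 was higher at the unadjusted p, against 8.34% of all genes tested, and 3 were lower, against 4.89%. Their median log2 fold change was -0.09 and turned to 0.10 without control IgG-IP replicate 1. Ssrp1, a subunit of the FACT complex, was at 65.3 and 74.2 CPM in TSSK2-IP and at 233 and 104 CPM in the controls (log2 fold change -1.27, edgeR adjusted p = 0.321). Rbbp7, a histone-binding protein of the CAF-1 and HAT1 family of complexes, was at 9.95 and 9.89 against 2.81 and 5.05 CPM (1.35, edgeR adjusted p = 0.335). Of 20 tested S phase genes, 1 was higher and 0 were lower at the unadjusted p, against the same 8.34% and 4.89%. Their median was -0.08. Ccna2, which encodes cyclin A2, was at 7.67 and 10.5 CPM against 2.96 and 4.83 CPM (1.23, edgeR adjusted p = 0.374), and Mcm7, a subunit of the replicative helicase, at 108 and 96.3 against 333 and 128 CPM (-1.18, edgeR adjusted p = 0.384). Ssrp1 and Mcm7 were each highest in control IgG-IP replicate 1.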

How the data were processed

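RNA of 2 TSSK2-IP and 2 control IgG-IP libraries was analysed. The authors deposited raw counts, unnormalized whole numbers for each gene. Per the submitters' processing notes, reads were trimmed with Trimmomatic 0.39, mapped to GRCm38 with STAR 2.7.10a and counted with featureCounts 2.0.3. Identifiers were named from GENCODE vM21, in which 21817 of 21936 were found. Counts were fitted with edgeR 4.0.16 in R 4.3.3 (TMM, filterByExpr, glmQLFit, glmQLFTest) over 14722 genes, with Benjamini-Hochberg adjustment over all of them. Calls needed a log2 fold change of 1 or more, or of -1 or less, with an adjusted p up to 0.05. Summed levels were compared by exact permutation tests. The alternatives were DESeq2 1.42.0, its size factors, upper-quartile normalization, no filter, at least 10 counts in every library, the replicate number as a block, and leaving out each library. Simulated data with known changes were used to test the fits. Named genes were the testis variants, all H1, Hist3 and Hist4 genes, the 2 most abundant per kb in each other class, the 5 with the smallest p, the 3 with the largest log2 fold change in each direction, and the 2 with the smallest p in each other list, and further genes were named after their values were seen. The gene family and the lists were chosen with earlier results of these data known. Uniqueness, stem-loops and promoter motifs were computed from GRCm38 and RefSeq with Python 3.11.15. The histone genes outside the clusters had 19 of 20 listed genes in the table and the processing list 18 of 20. Libraries of DDX4-IP were not used here.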

Additional observations from a re-analysis of the deposited data

How the results depend on the processing

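Depth left 48 clustered histone genes untested, none with more than 19 counts in a library. Of the 19 tested clustered histone genes, 14 kept the sign of their log2 fold change in every alternative run in which they were tested. Passes of both thresholds came with a control library left out, where the spread came from the TSSK2-IP pair alone, and for Hist2h2ab also with no filter. Over all genes, both fits with a control library left out called many more genes than the main fit, in both directions. The calls of those fits, which include the highest number given next, are therefore not read as a result about the family. The number called higher was 1 with no filter on low counts and 0 to 9 when each library was left out, and the number called lower was 0 throughout. The median log2 fold change was 0.23 to 1.04 over the left-out libraries, 0.52 with DESeq2, 0.56 with its size factors, 0.59 with upper-quartile normalization, 0.57 with no filter and 0.45 with at least 10 counts in every library. The genes behind these medians differed. They were 24 to 27 on leaving out a library, 61 with DESeq2 and with no filter, 12 with at least 10 counts, and 19 otherwise. The part of this in the shifts was not tested. In the other lists, genes were called only with a control library left out, and those calls are likewise not read as a result about the lists. Without control IgG-IP replicate 1, the medians of the processing and chaperone genes turned to 0.11 and 0.10. The summed level differed by 0.86 (log2) on raw library totals and by 0.40 with TMM. Scaling with DESeq2's size factors moved the median of all genes from -0.02 to -0.14. The deviations of the libraries numbered 1 correlated at 0.13, which with 2 pairs does not establish a pairing. With the replicate number as a block, 0 clustered histone genes were called and the median was 0.71, while 274 genes in all were called higher and 3 lower. Of all genes, DESeq2 called 6 higher, upper-quartile normalization 20, no filter 283 with 24 lower, and at least 10 counts in every library 29, against 102. Without TSSK2-IP replicate 1 or 2 the number was 23 or 33.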

Other observations

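Genes that lie near the clusters but are not histone genes were compared with the Hist2 and Hist1 genes. Within 250 kb of the Hist2 genes, 8 other genes were tested. Of these, 4 had a positive log2 fold change, against 49.2% of all genes tested, the median was -0.18 and the range was -0.90 to 0.92. Both TSSK2-IP libraries lay above both controls for 2 of the 8, against 27.3% of all genes tested. At an unadjusted p under 0.05 in edgeR's quasi-likelihood test, 1 of the 8 was higher, against 8.34% of all genes tested. It was Bola1 (log2 fold change 0.92, edgeR adjusted p = 0.364). Within 250 kb of the Hist1 genes, 15 other genes were tested, 9 had a positive log2 fold change, against 49.2% of all genes tested, and the median was 0.17. The Hist2 neighbours were chosen for comparison after the values of the Hist2 genes were seen.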
